A study of Mus musculus with 70 samples.

Results

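The expression difference between mice bred for high (HAB) and for low (LAB) anxiety-related behavior was compared between hypothalamus and amygdala. The comparison used 50 of the 70 arrays of the series, 20 of the hypothalamus and 30 of the amygdala, and set the mean log2 HAB/LAB of the paraventricular (PVN) and supraoptic nucleus (SON) against that of the basolateral/lateral (BLA), central (CeA) and medial amygdala (MeA). Regions were taken from the sample titles, and each region was reduced to 1 value per probe with both dye orientations weighted equally. The value is called the contrast throughout. A positive contrast means that HAB/LAB was higher in the hypothalamus than in the amygdala. The remaining 20 arrays, of nucleus accumbens (NAc) and anterior cingulate cortex (Cg), are given only beside it.

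Both lines were CD-1 (ICR) mice, and all animals were untreated males of 10 weeks. RNA of 6 HAB and of 6 LAB mice was pooled per region, amplified in 2 rounds and hybridized on a two-colour cDNA array in 10 technical replicates, 5 for each of the dye orientations (HAB labelled with Cy3, or with Cy5). A p-value below therefore compares 1 HAB pool with 1 LAB pool per region and measures the spread between arrays, not the spread between animals. The regions were punched from frozen slices, so each pool also holds neighboring tissue, and in such bulk samples fewer cells of a type and less RNA per cell cannot be told apart.

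The PVN and the SON hold the magnocellular neurons that make vasopressin and oxytocin and release them from the posterior pituitary, and the PVN also starts the hormonal stress response. The amygdala assigns threat to stimuli. Its basolateral part is built mainly of excitatory neurons, its central part of inhibitory neurons that resemble those of the striatum, and its medial part receives social odor signals. The regions thus differ in cell types, and a gene can differ between the lines in one of them and not in the other.

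The labels were checked against marker levels (log2 intensity of both lines, limma with Benjamini-Hochberg adjustment over all probes). Of the hypothalamic markers, Avp (vasopressin) was 2.79-fold, Trh (thyrotropin releasing hormone) 3.16-fold and Nnat (neuronatin) 1.57-fold brighter in hypothalamus than in amygdala (adjusted p = 2.92e-08, 1.36e-14 and 0.000716). Oxt was 1.24-fold brighter without passing the test (adjusted p = 0.214), Gal and Peg3 did not pass, and Crh, Sim1 and Otp were not matched to a probe. Penk, a marker of central amygdala and striatum, was dimmer in hypothalamus than in amygdala (0.546-fold, adjusted p = 0.000386), but of the same list Adora2a was brighter in hypothalamus (1.32-fold, adjusted p = 0.0284) and Ppp1r1b did not pass (adjusted p = 0.573). Camk2a, a marker of excitatory forebrain neurons, was also brighter in hypothalamus (1.32-fold, adjusted p = 0.0139). Levels differed between both sides for 41.8% of the probes. The PVN arrays were all scanned on 1 day, and no scan day held arrays of more than 1 region, so region and scan day cannot be told apart.

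Few probes differed between hypothalamus and amygdala in their HAB/LAB. Of 22824 probes tested, 63 (0.276%) passed the contrast at an adjusted p under 0.05, 40 of them (0.175%) with HAB/LAB higher in the hypothalamus and 23 (0.101%) with HAB/LAB lower there. The 63 contrasts had sizes of 0.43 to 1.27 on the log2 scale, against a median SE of 0.19 over all probes. Of the 63, 47 carried a gene symbol and stood for 41 genes. Symbols were matched afterwards to the names given on the array. Where probes of 1 gene disagree, as below for Rab6a, Cnbp, Mbp, Clec11a and Gabbr1, the symbol of a probe may be wrong, which was not tested. The test was limma over the 50 arrays with a mean and a dye term for each region.

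The regions were also taken as the unit, since arrays of a region share their pools. With 2 hypothalamic against 3 amygdaloid values, limma called 0 of 22824 probes (smallest adjusted p = 0.0907; 1139 probes had an unadjusted p under 0.05, among them 61 of the 63). An exact permutation test of 5 regions cannot go below p = 0.1. In 49 of the 63 probes both hypothalamic regions lay on 1 side of all 3 amygdaloid regions with 1 sign in both dye orientations, 77.8% against 13.9% over all probes, a share that the choice of the 63 by the same values raises and from which nothing is read. Of all 63, 57 were readable on both sides, that is, above the empty spots of the array on at least 50% of the arrays of a side in either line.

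Tested against 0 on each side, a comparison added after the data had been seen, 151 probes (0.662%) differed between HAB and LAB mice in the hypothalamus and 249 (1.09%) in the amygdala. Both tests were passed by 50 probes, 49 of them in 1 direction. Over the 10814 probes readable on both sides, the hypothalamic and the amygdaloid line difference correlated with r = 0.235 across probes, and 53% of the probes had the same sign. Single regions were no closer within a side (PVN and SON r = 0.144; BLA and CeA 0.174, BLA and MeA 0.103, CeA and MeA 0.0115) than between the sides (0.044 to 0.169), CeA and MeA having the lowest value of these. Probes are not independent replicates, and no p is given for these values.

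**Figure D1:**
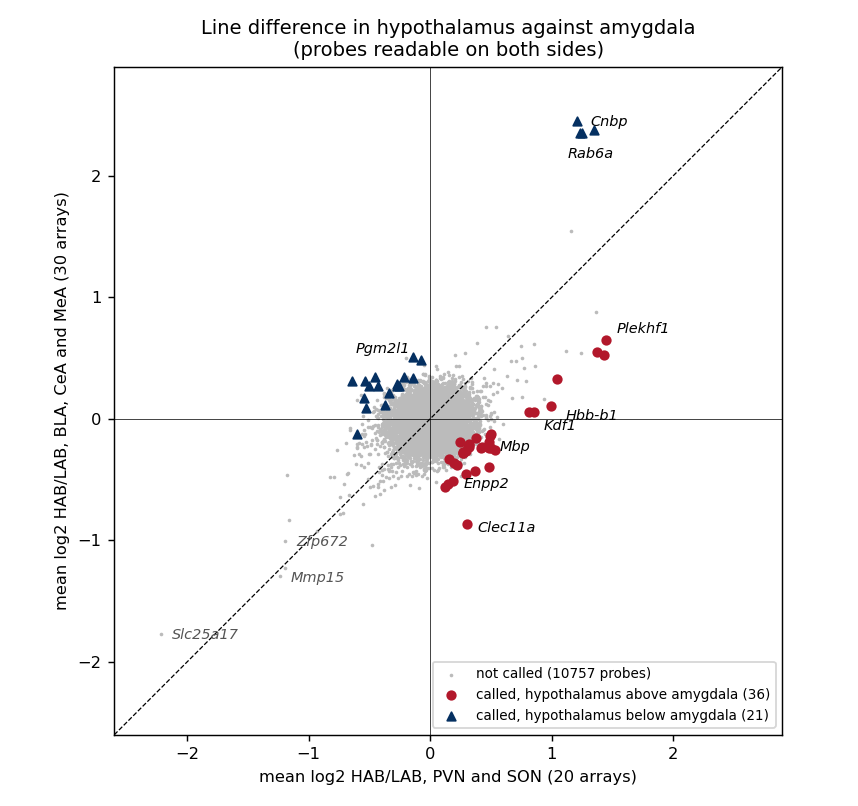
Mean log2 HAB/LAB in the hypothalamus (PVN and SON, x axis) and in the amygdala (BLA, CeA and MeA, y axis) for the 10814 probes readable on both sides; the dashed line marks equal line differences, red points are the 36 called probes with a higher and blue triangles the 21 with a lower value in the hypothalamus. The called probes lie away from the dashed line, Cnbp and Rab6a are above 0 on both axes, and Slc25a17 (contrast -0.44), Mmp15 and Zfp672 were not called.

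Vasopressin was higher in HAB mice in the hypothalamus (adjusted p against 0 = 7.83e-06), while its amygdaloid line difference lay at 0 (adjusted p = 0.945, limma). Avp encodes the hormone that retains water and, in the brain, acts on social and anxiety-related behavior. Its log2 HAB/LAB ran from 0.02 over a median of 0.94 to 1.82 on the 10 PVN arrays, and from -0.46 over 1.22 to 3.07 on the 10 SON arrays. In the amygdala the medians were -0.15 (BLA), 0.12 (CeA) and -0.17 (MeA), with arrays between -1.48 and 1.75. All 10 PVN and 8 of 10 SON arrays were thus above 0, and the arrays of both sides overlapped while the region means did not. Avp was 2.00-fold higher in HAB in the hypothalamus and 0.973-fold in the amygdala, a contrast of 1.04 (SE 0.19, adjusted p = 0.0015, limma). By orientation, the SON gave 2.07 where HAB was labelled with Cy3 and 0.27 where it was labelled with Cy5. The contrast likewise was 1.76 in the Cy3 orientation and 0.32 in the Cy5 orientation (adjusted p = 0.66), and 0.87 without the SON (adjusted p = 0.151). In the hypothalamus Avp exceeded the empty spots on 20 of 20 arrays in HAB and on 15 in LAB, but in the amygdala only on 5 of 30 in HAB and on 6 in LAB, so its amygdaloid line difference is that of a dim probe.

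Of 37 neuropeptide genes of the hypothalamus on a fixed list, 20 were measured, and Avp was the 1 called (1 higher, 0 lower, with 10 of 20 above 0 and a median of 0.02). Over all probes 0.276% were called. Oxytocin, made in neighboring cells of the same nuclei, showed no line difference that differed between the sides. The region means of Oxt were 0.27 (PVN), 0.10 (SON), 0.04 (BLA), 0.11 (CeA) and 0.00 (MeA). The contrast was 0.13 with a 95% interval of -0.33 to 0.60 (adjusted p = 0.939). Tac1, the precursor of substance P, was above 0 on 1 of 20 hypothalamic and on 7 of 30 amygdaloid arrays. Its contrast of -0.33 did not pass (adjusted p = 0.195).

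**Figure D2:**
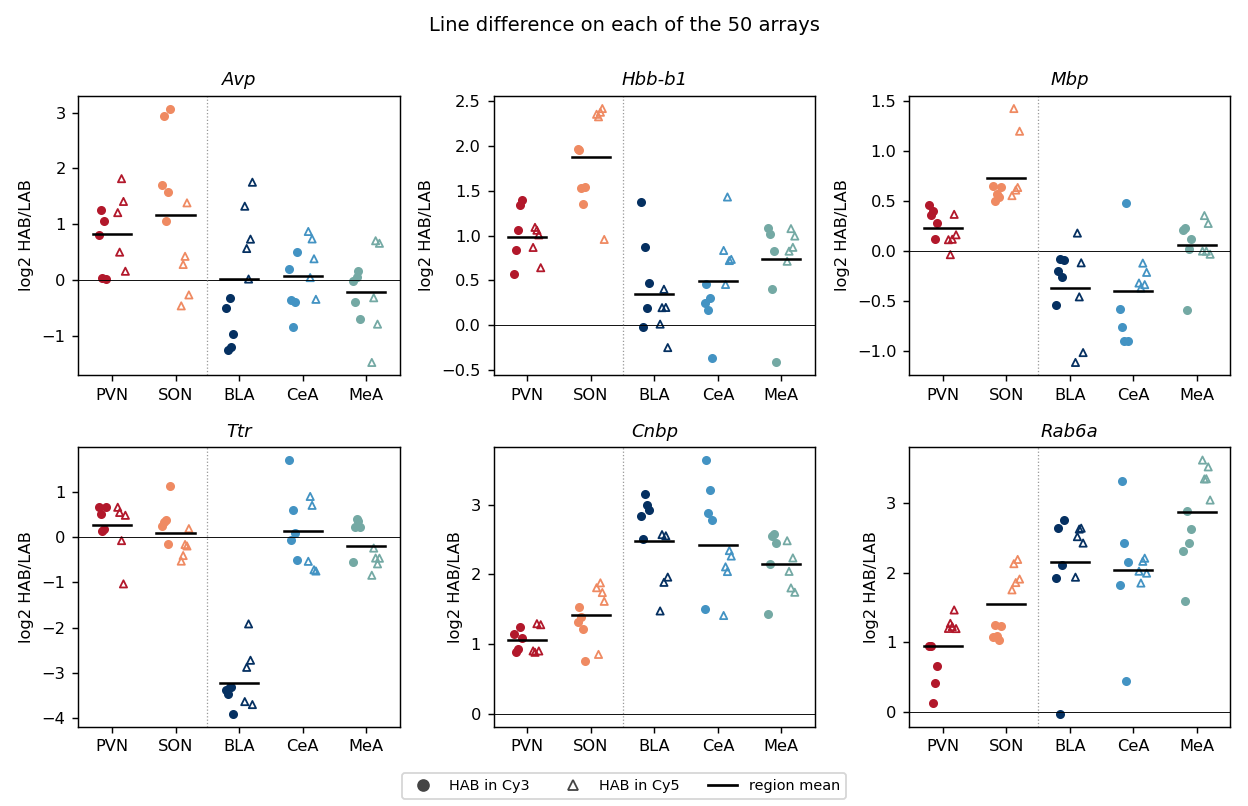
Log2 HAB/LAB on each of the 50 arrays for 6 genes named by the rule; filled circles are arrays with HAB in Cy3, open triangles arrays with HAB in Cy5, black bars the means of 10 arrays, and a dotted line separates the hypothalamus (PVN, SON) from the amygdala (BLA, CeA, MeA). All 20 hypothalamic arrays of Hbb-b1 lie above 0, Ttr is far below 0 in the BLA, and Cnbp is above 0 on all 50 arrays, with the 2 hypothalamic regions lowest.

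Beta-globin, the oxygen carrier of red blood cells, was higher in HAB mice in the hypothalamus and, by the probe with the largest contrast, also in the amygdala (adjusted p against 0 = 4.69e-15 and 3.11e-05, limma). Hbb-b1 ran from 0.57 over 1.03 to 1.4 in the PVN and from 0.96 over 1.96 to 2.42 in the SON. Its medians were 0.20 in the BLA, 0.46 in the CeA and 0.85 in the MeA. All 20 hypothalamic and 26 of 30 amygdaloid arrays were above 0. HAB exceeded LAB 2.70-fold in the hypothalamus and 1.44-fold in the amygdala, a contrast of 0.91 (SE 0.13, adjusted p = 3.02e-05, limma). Its other probes gave 0.89 (adjusted p = 0.0189) and 0.70 (adjusted p = 0.0601), the first of them with means of 1.00 in the hypothalamus and 0.11 in the amygdala (adjusted p against 0 = 0.829 in the amygdala), and near-identical beta-globin genes may share these spots. The SON (mean 1.88) stood above the PVN (0.99), and without the SON the contrast was 0.46 and no longer passed (adjusted p = 0.45).

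Other red cell genes did not pass: of 10 measured genes of the blood list 1 was called, 8 were above 0 and the median was 0.26. Over all probes 0.276% were called and the median was 0.00. Hba-a1 (alpha-globin) had a contrast of 0.17 (adjusted p = 0.908) and Alas2, the heme synthesis enzyme of red cells, of 0.12 (adjusted p = 0.929). Over the 3 blood markers, Hbb-b1 included, the mean line difference was 0.25 in the PVN and 0.85 in the SON, against -0.01 in the BLA, 0.07 in the CeA and 0.40 in the MeA. The part of blood in these values was not tested.

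In a further pair of genes all 20 hypothalamic arrays were above 0 and the MeA lay at the level of the PVN. Hcst, an adaptor of activating receptors on immune cells, averaged 1.15 ± 0.35 in the PVN and 1.60 ± 0.44 in the SON, against 0.41 ± 0.48 in the BLA, 0.06 ± 0.58 in the CeA and 1.18 ± 1.01 in the MeA (SD, n = 10 arrays each). Its contrast was 0.82 (SE 0.16, adjusted p = 0.00557, limma). Plekhf1, a protein of endosomes and lysosomes, averaged 1.01 ± 0.19 (PVN) and 1.88 ± 0.63 (SON), against 0.60 ± 0.71 (BLA), 0.32 ± 0.61 (CeA) and 1.02 ± 0.52 (MeA), a contrast of 0.80 (SE 0.16, adjusted p = 0.00787, limma). In both genes the regions of the sides thus overlapped, and without the SON the contrasts were 0.60 for Hcst and 0.36 for Plekhf1 (adjusted p = 0.506 and 0.832). Without the CeA they were 0.58 and 0.64 (adjusted p = 0.272 and 0.162), and Hcst also lost its call without the BLA (0.75, adjusted p = 0.0504). Hcst was the 1 called gene of the microglia list (21 measured, 9 above 0, median -0.06), against 0.276% called over all probes. The 5 defining markers of microglia averaged -0.15 (PVN) and -0.08 (SON), against -0.22 (BLA), 0.07 (CeA) and 0.13 (MeA).

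Myelin basic protein, a main protein of the myelin sheath, was one of several called genes with HAB/LAB above 0 in PVN and SON and below 0 in BLA and CeA. Mbp ran from -0.03 over 0.23 to 0.46 on the PVN arrays and from 0.50 over 0.63 to 1.43 on the SON arrays. In the BLA it ran from -1.11 over -0.23 to 0.18 and in the CeA from -0.90 over -0.35 to 0.49, whereas the MeA had a median of 0.07. On 19 of 20 hypothalamic arrays but only on 10 of 30 amygdaloid arrays, 8 of these in the MeA, Mbp was above 0. The contrast was 0.72 (SE 0.11, adjusted p = 0.000166, limma), or 1.4-fold in the hypothalamus and 0.849-fold in the amygdala. Of 6 Mbp probes 2 were called, the other at 0.54 (adjusted p = 0.00614), and the remaining 4 lay between -0.19 and 0.49. Without the SON the contrast was 0.47 (adjusted p = 0.355).

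Of 24 measured genes of the oligodendrocyte list 1 (Mbp) was called (0.276% over all probes), 15 were above 0 and the median was 0.06. The myelin genes Mobp and Cnp had contrasts of -0.22 and -0.19 (adjusted p = 0.566 and 0.703, limma). The mean line difference over the 5 oligodendrocyte markers was 0.09 (PVN) and 0.11 (SON), against -0.34 (BLA), 0.15 (CeA) and 0.12 (MeA).

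Values much like those of Mbp were found for Cdk2ap2, a protein that binds the cell cycle kinase CDK2, for the translation initiation factor Eif4b and for Chmp1a, a subunit of the membrane-cutting ESCRT complex. Their contrasts were 0.71, 0.74 and 0.66 (adjusted p = 0.000252, 0.00504 and 0.00199, limma). In each of them PVN (0.26 to 0.33) and SON (0.52 to 0.75) were above 0, BLA (-0.43 to -0.33) and CeA (-0.42 to -0.35) below it, and the MeA close to it. Against NAc and Cg, the amygdala differed in these 4 genes (-0.79 to -0.65 for Mbp, Eif4b, Chmp1a and -0.82 for Cdk2ap2, all adjusted p under 0.05 of limma), and the hypothalamus in none of them (-0.13 to 0.09). For Cdk2ap2 and Eif4b the other probes were not called (-0.28 to 0.00 and -0.09).

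Gabbr1, a subunit of the GABA-B receptor that dampens neuronal activity, had means of 0.43 (PVN) and 0.53 (SON) against -0.16 (BLA), -0.33 (CeA) and -0.06 (MeA). Its contrast of 0.67 (SE 0.14, adjusted p = 0.0126, limma) lay between 0.60 and 0.73 when a region was left out, although it then no longer passed without the PVN, the SON or the CeA (adjusted p = 0.0851, 0.288 and 0.163). The other 4 Gabbr1 probes were not called and lay between -0.10 and 0.23. In the BLA this probe stood at 0.75 in the Cy3 and at -1.08 in the Cy5 orientation of HAB, which its regional mean averages. Of 19 measured genes of the GABA system, each taken by its brightest probe, 0 were called (0.276% over all probes) and the median was 0.11.

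A further 5 genes had higher contrasts close to the threshold. Kdf1, a factor of skin cell differentiation, averaged 0.67 (PVN) and 1.05 (SON) against -0.11 (BLA), -0.06 (CeA) and 0.35 (MeA), a contrast of 0.80 (adjusted p = 0.0361). The uncharacterized 3110035P10Rik averaged 0.75 and 0.87 against 0.21, 0.00 and -0.04 in the same order (contrast 0.76, adjusted p = 0.018). Arhgef10, a guanine nucleotide exchange factor, had a contrast of 0.79 (adjusted p = 0.0484) and Bhlhe41, a repressor of the circadian clock, of 0.64 (adjusted p = 0.0471). Arf4, a GTPase of Golgi transport, stood at 0.21 and 0.03 in PVN and SON and below 0 in the amygdala (-0.31 in BLA, -0.94 in CeA and -0.43 in MeA) (contrast 0.68, adjusted p = 0.0484, limma for all 5). Its SON and MeA values are those of dim spots. Arf4 exceeded the empty spots in the SON on 2 of 10 arrays in HAB and on 1 in LAB, and in the MeA on 0 and 2. Other probes of Kdf1 (0.18), 3110035P10Rik (0.04 and -0.06), Bhlhe41 (0.40) and Arf4 (0.19 and -0.74) were not called.

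**Figure D3:**
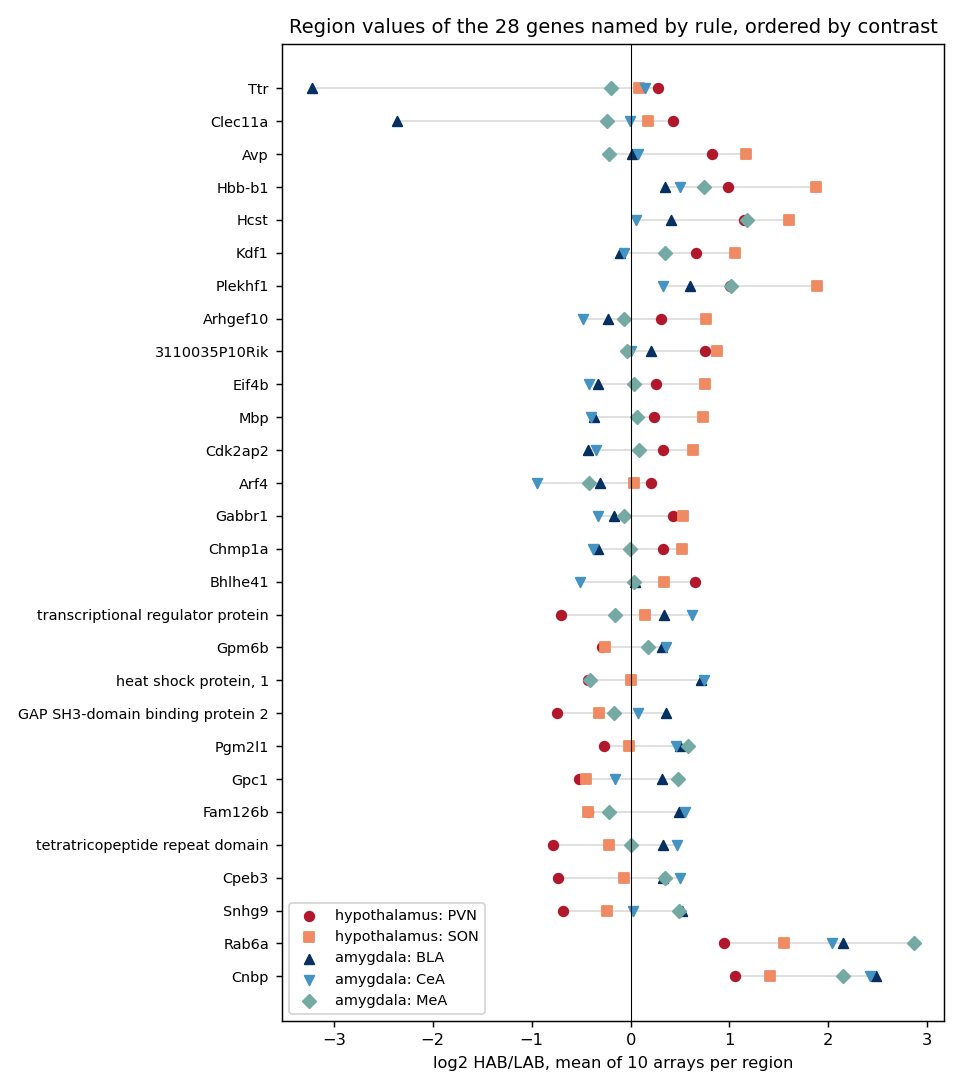
Mean log2 HAB/LAB of 10 arrays in each of the 5 regions (x axis) for the 28 genes named by the rule, ordered by their contrast with the highest at the top; reddish symbols are the hypothalamic and bluish symbols the amygdaloid regions. For Ttr and Clec11a at the top the BLA lies far below the other regions, and in Cnbp and Rab6a at the bottom all 5 regions are above 0 with the hypothalamus lower.

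Some positive contrasts, among them the largest ones of Ttr and Clec11a, rested on the BLA. Ttr, the thyroid hormone carrier made by the choroid plexus, averaged 0.28 in the PVN and 0.08 in the SON, against 0.14 in the CeA and -0.19 in the MeA, and ran from -3.91 over -3.35 to -1.92 on the 10 BLA arrays. In the BLA its mean log2 level was 10.12 in HAB and 13.35 in LAB. This probe was readable on neither side as defined above: outside the BLA it was mostly not above the empty spots, with 5 of 10 HAB and 3 of 10 LAB channels above them in the SON and at most 2 of 10 in the other regions. The contrast of 1.27 (SE 0.16, adjusted p = 2.51e-06, limma) was 0.20 without the BLA (adjusted p = 0.807). Other Ttr probes gave 1.02 (adjusted p = 0.00056) and, for the brightest, 0.47 (adjusted p = 0.185).

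Clec11a, a growth factor of bone and blood cells, averaged 0.43 ± 0.48 in the PVN and 0.17 ± 1.03 in the SON, against -2.36 ± 0.57 in the BLA, -0.01 ± 0.54 in the CeA and -0.24 ± 0.61 in the MeA (SD, n = 10 arrays each), and all 10 BLA arrays were below 0. Its contrast was 1.17 (SE 0.19, adjusted p = 0.00024) and 0.42 without the BLA (adjusted p = 0.542), and a second probe gave 0.15. Enpp2, which makes lysophosphatidic acid and is abundant in choroid plexus and oligodendrocytes, had 0.07 in the PVN and 0.31 in the SON, against -1.49 in the BLA, -0.19 in the CeA and 0.14 in the MeA (contrast 0.70, adjusted p = 0.000252; 0.21 without the BLA, adjusted p = 0.66), and its other probes gave 0.36 and 0.37 without a call. Erh, a small conserved nuclear protein named after its values were seen, had -0.04 in the PVN and 0.33 in the SON, against -1.66 in the BLA, -0.38 in the CeA and 0.43 in the MeA (contrast 0.68, adjusted p = 0.000798, limma; 0.12 without the BLA). Of 19 measured genes of the choroid plexus and ependyma list 1 (Enpp2) was called (0.276% over all probes), with a median of 0.08. The 4 measured choroid plexus markers, among them Ttr and Enpp2, averaged -0.02 (PVN) and 0.31 (SON), against -0.90 (BLA), 0.20 (CeA) and 0.02 (MeA). Their part in the BLA values of Clec11a and Erh was not tested.

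Among the probes with a lower contrast, the largest were higher in HAB mice in every region, but less so in the hypothalamus. Cnbp, a zinc finger protein that binds single-stranded DNA and RNA, ran from 0.88 over 1.01 to 1.29 in the PVN and from 0.76 over 1.46 to 1.88 in the SON. In the amygdala its medians were 2.56 (BLA), 2.30 (CeA) and 2.19 (MeA), with arrays from 1.41 to 3.64. All 50 arrays were above 0, and PVN and SON lay below the 3 amygdaloid regions. HAB exceeded LAB 2.35-fold in the hypothalamus and 5.10-fold in the amygdala (contrast -1.12, SE 0.13, adjusted p = 3.65e-07, limma). A second Cnbp probe behaved differently, with -0.36 in the hypothalamus, -0.10 in the amygdala and a contrast of -0.26 (adjusted p = 0.746).

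Rab6a, a GTPase that directs transport at the Golgi, showed the same order. It ran from 0.13 over 1.07 to 1.46 in the PVN and from 1.03 over 1.50 to 2.19 in the SON, while the medians were 2.47 in the BLA, 2.08 in the CeA and 2.96 in the MeA. On all 20 hypothalamic and 29 of 30 amygdaloid arrays it was above 0. HAB exceeded LAB 2.37-fold in the hypothalamus and 5.11-fold in the amygdala (contrast -1.11, SE 0.16, adjusted p = 3.48e-05), and a second probe gave -1.03 (adjusted p = 9.07e-05, limma). The other 2 Rab6a probes were not called and ran the other way (0.42 and 0.33), with hypothalamic means of 0.31 and 0.13 and amygdaloid means of -0.12 and -0.20. An unnamed clone (5730540D15) had the smallest p-value of all probes and nearly the same values, 0.91 (PVN) and 1.51 (SON) against 2.50 (BLA), 2.15 (CeA) and 2.71 (MeA), a contrast of -1.25 (adjusted p = 2.1e-08, limma).

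In these 3 transcripts the hypothalamus also lay below NAc and Cg. Rab6a stood at 2.84 (NAc) and 2.15 (Cg), Cnbp at 1.91 and 2.22 and the clone at 2.51 and 2.79. Hypothalamus minus NAc and Cg was -1.25, -0.83 and -1.44 (adjusted p = 1.66e-07, 1.94e-05 and 7.73e-11, limma over 70 arrays), and amygdala minus NAc and Cg was -0.14, 0.29 and -0.20 (adjusted p = 0.742, 0.221 and 0.522). Over all probes these comparisons called 511 (2.24%) and 1017 (4.46%). They share arrays with the contrast and are given side by side only.

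Most other lower probes had HAB/LAB below 0 in the hypothalamus, lowest in the PVN, and close to or above 0 in the amygdala. The clone B930055M19, named after its values were seen, averaged -0.91 (PVN) and -0.39 (SON) against 0.50 (BLA), 0.57 (CeA) and -0.13 (MeA), a contrast of -0.96 (adjusted p = 3.15e-06, limma). A probe labelled tetratricopeptide repeat domain ran from -1.41 over -0.72 to 0.04 in the PVN and had a mean of -0.22 in the SON, against 0.33, 0.47 and 0.00 in BLA, CeA and MeA (contrast -0.77, adjusted p = 0.000984). Fam126b, a partner of a phosphatidylinositol kinase at the plasma membrane, averaged -0.43 in PVN and SON alike, against 0.49 in the BLA, 0.55 in the CeA and -0.22 in the MeA (contrast -0.70, adjusted p = 0.00787). A protein that binds the SH3 domain of Ras-GTPase-activating protein was below 0 on all 10 PVN arrays (mean -0.74), with -0.32 in the SON against 0.36 (BLA), 0.08 (CeA) and -0.16 (MeA), and had a contrast of -0.62 (adjusted p = 0.0348, limma). All of them lay below 0 in both hypothalamic regions.

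Besides Rab6a, Pgm2l1 and Gpm6b were the lower genes with a pair of called probes each. Pgm2l1, an enzyme that makes glucose bisphosphate in brain, had means of -0.27 in PVN and -0.02 in SON, against 0.50 in BLA, 0.46 in CeA and 0.58 in MeA, where it ran from 0.38 over 0.56 to 0.91. Its contrasts were -0.66 and -0.56 (adjusted p = 0.000692 and 0.018, limma). By the first probe, Pgm2l1 did not pass against 0 in the hypothalamus (mean -0.14, adjusted p = 0.686, limma). In the amygdala it was higher in HAB (mean 0.51, adjusted p against 0 = 2.92e-06, limma). In NAc (0.92) and Cg (0.79) it was higher still, so that the hypothalamus differed from them by -1.0 (adjusted p = 2.54e-09) and the amygdala by -0.35 (adjusted p = 0.0353). Gpm6b, a membrane glycoprotein of neurons and oligodendrocytes, averaged -0.28 (PVN) and -0.25 (SON) against 0.32 (BLA), 0.36 (CeA) and 0.18 (MeA), with contrasts of -0.56 and -0.55 (adjusted p = 0.0438 and 0.00254). Further probes of both genes, 3 of Pgm2l1 (-0.33 to -0.03) and 2 of Gpm6b (0.09 and 0.13), were not called.

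Some lower calls rested on dim spots or on overlapping regions. Snhg9, a host of small nucleolar RNAs, was below 0 on all 10 PVN arrays (mean -0.68) and above 0 on all 10 BLA arrays (mean 0.52), with a contrast of -0.80 (adjusted p = 0.0409). Cpeb3, which represses the translation of synaptic messages, was readable in the hypothalamus only (contrast -0.79, adjusted p = 0.0471) and Gpc1, a heparan sulfate proteoglycan, in the amygdala only (contrast -0.70, adjusted p = 0.0438). For a heat shock protein 1 (-0.56, adjusted p = 0.0471) and a transcriptional regulator protein (-0.54, adjusted p = 0.0116, limma) the regions overlapped: the PVN stood at -0.43 and -0.70 and the SON at 0.01 and 0.15, against 0.71 and 0.34 (BLA), 0.74 and 0.62 (CeA) and -0.41 and -0.15 (MeA).

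Outside the rule for named genes, the called genes with a higher contrast were smaller in size. They were Aldoa, an enzyme of glycolysis (0.62), Ints1 (0.60), Ppp2r2c, a regulatory subunit of protein phosphatase 2A (0.56), Rtl8c (0.56), Adat2 (0.55), Rtn1 (0.55), Zfp445 (0.55), Smn1, the survival motor neuron gene (0.54), the antioxidant Txn1 (0.53), Gstp2 (0.53), beta-actin Actb (0.48) and Basp1 (0.43). In most of them the CeA was lowest, for example -0.87 for Ppp2r2c and -0.71 for Actb. The lower ones were the adhesion molecules Cntn1 (-0.53) and Alcam (-0.48) and the flippase subunit Tmem30a (-0.48). Their adjusted p-values (limma) ran from 0.00557 to 0.0492, and all were named after their values were seen.

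Several line differences did not pass the contrast. Slc25a17, a transporter of the peroxisome membrane, was below 0 on all 50 arrays, with means of -1.90 (PVN) and -2.53 (SON) against -1.35 (BLA), -1.87 (CeA) and -2.09 (MeA). Its contrast was -0.44 with a 95% interval of -0.75 to -0.14, which did not pass over all probes (adjusted p = 0.285, limma). Mmp15, a membrane-bound matrix protease, averaged -1.24 in the hypothalamus and -1.30 in the amygdala (contrast 0.06, interval -0.25 to 0.36). Zfp672, a zinc finger protein, had a contrast of -0.19 (interval -0.44 to 0.06), and Glo1, the glyoxalase that detoxifies methylglyoxal, of -0.31 (interval -0.60 to -0.01, adjusted p = 0.557). Hmgn3, a nucleosome-binding protein, averaged 0.76 in the hypothalamus and 0.50 in the amygdala (contrast 0.26, adjusted p = 0.547). A list of 35 symbols, older and newer names, was made mainly from the genes the study took on to quantitative PCR. The study chose those genes on these arrays together with arrays of another platform (Illumina). Of the list, 26 were measured, and 1 was called higher (Hbb-b1) and 1 lower (Rab6a). Over all probes 0.175% were called higher and 0.101% lower.

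A contrast of sides can miss a difference that divides a side. Egr1, an immediate early gene that follows neuronal activity, was above 0 on all 10 arrays of PVN (0.79) and MeA (1.19) and on 9 of 10 of SON (0.48), and averaged -0.02 in the BLA and -0.11 in the CeA. Its contrast was 0.28 (adjusted p = 0.476, limma). The brightest probe of Syt4, a vesicle protein of neurons, had 0.07 (PVN) and 0.60 (SON) against -0.03, -0.05 and -0.08 in BLA, CeA and MeA, and its contrast of 0.39 did not pass (adjusted p = 0.168). Other probes of Syt4 lay at -0.26, -0.09 and -0.30.

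Among the gene lists, the ribosomal proteins had many small positive contrasts and no call. Of 75 measured genes, 0 were called (against 0.276% of all probes), 14 had an unadjusted p under 0.05 (1943 of all 22824 probes), and 59 had a contrast above 0, against 11416 of all 22824 probes. Their median contrast was 0.16, with medians of 0.11 in the hypothalamus and -0.03 in the amygdala. Rpl10a (0.50, adjusted p = 0.0598) and Rpl27a (0.44, adjusted p = 0.0627, limma) came closest to the threshold. Rpl10a was highest in the SON (0.99) and at 0.36 in the PVN, against 0.31 (BLA), 0.03 (CeA) and 0.18 (MeA), whereas Rpl27a was at 0.21 (PVN) and -0.04 (SON) and below 0 in the amygdala (-0.32, -0.37 and -0.38 in the same order).

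In the other lists no more than 1 gene was called in either direction, against 0.276% of all probes in both directions. Oxidative phosphorylation had 71 measured genes, 41 of them above 0, a median of 0.03 and its smallest adjusted p at Atp5l, a subunit of ATP synthase (0.42, adjusted p = 0.0627). Sterol synthesis had 34 measured genes with a median of 0.02 and Fasn, fatty acid synthase, at 0.46 (adjusted p = 0.0572, limma). The medians of central amygdala and striatal neurons (23 genes, -0.09), immediate early genes (29 genes, -0.08) and ion channels (38 genes, -0.07) lay below 0, each with 0 calls. The stress axis list (21 genes, median -0.01) had Avp as its 1 call, and the lists of excitatory forebrain neurons (25 genes, 0.01), astrocytes (29 genes, 0.02), endothelium and pericytes (35 genes, -0.04), monoamines (19 genes, -0.04), glutamate receptors (23 genes, 0.06), vesicle release (44 genes, 0.03), neuroendocrine secretion (15 genes, -0.03), hypothalamic developmental regulators (13 genes, 0.02), thalamic and hippocampal neurons (20 genes, 0.01) and medial amygdala and steroid hormone targets (9 genes, 0.00) had none.

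**Figure D4:**
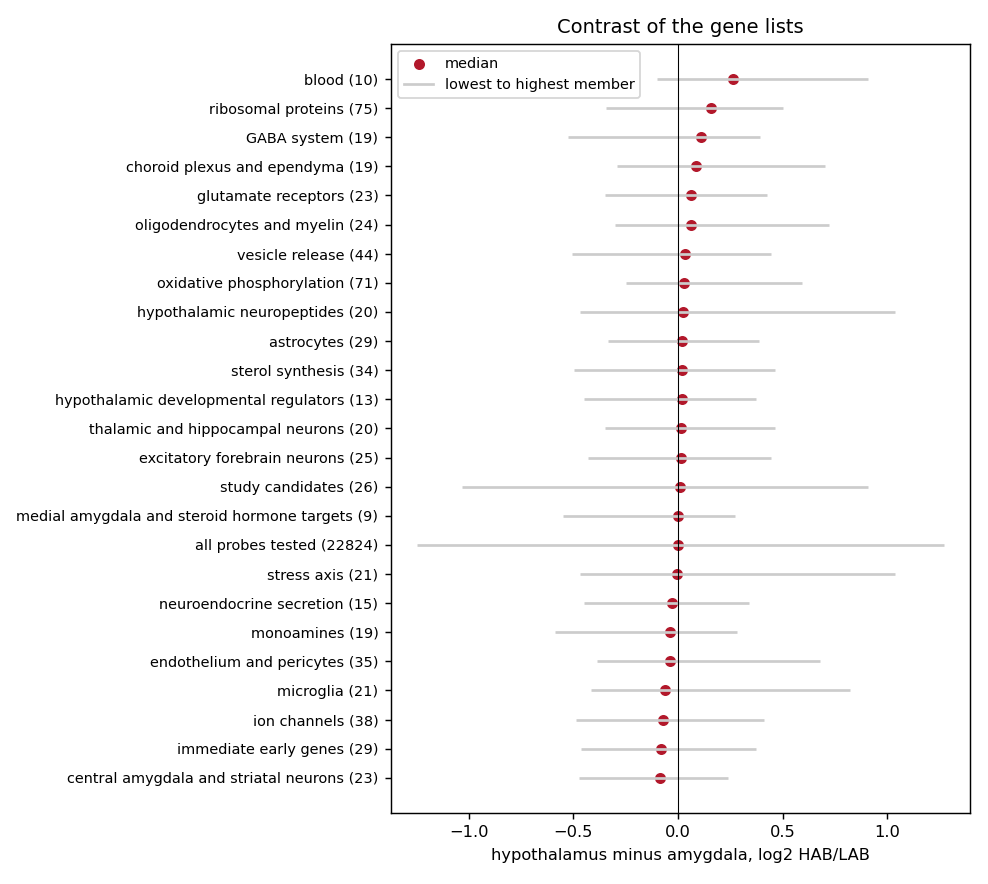
Contrast (hypothalamus minus amygdala, log2 HAB/LAB, x axis) of the genes of each list, 1 probe per gene with the number measured in parentheses, and of all 22824 probes tested; red points are medians and grey lines run from the lowest to the highest member. The medians lie between -0.09 and 0.26, with blood and ribosomal proteins highest.

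The order of the regions among the called probes is given as a description. Among the 40 higher probes the SON was the highest of the 5 regions in 31 and the PVN in 8, and the CeA was the lowest in 25 and the BLA in 12. Among the 23 lower probes the PVN was the lowest in 22. The called probes were chosen by the same region values, so the side of the highest and lowest region was largely fixed in advance. Nothing is read from these counts. The spread of the arrays differed between regions, with a median SD over the 10814 readable probes of 0.37 (PVN) and 0.59 (SON), against 0.47 (BLA), 0.50 (CeA) and 0.52 (MeA). Of these probes, 4.45% (PVN) and 11.9% (SON), against 5.59% (BLA), 14.9% (CeA) and 8.36% (MeA), exceeded 1.3-fold in either direction.

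Without the PVN 28 of the 63 probes still passed, without the SON 20, without the BLA 35, without the CeA 20 and without the MeA 56. Each of these fits also had fewer arrays, which by itself can cost a probe its call. Cnbp and the clones 5730540D15 and B930055M19 were the 3 called whichever region was left out. In 50 of the 63 probes at least 50% of the contrast remained whichever region was left out. The 6 probes that fell below this without the BLA were all higher ones, among them both called Ttr probes, Clec11a, Enpp2 and Erh, the 4 without the PVN and the 1 without the CeA were lower ones, and the 2 without the SON were higher ones.

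**Figure D5:**
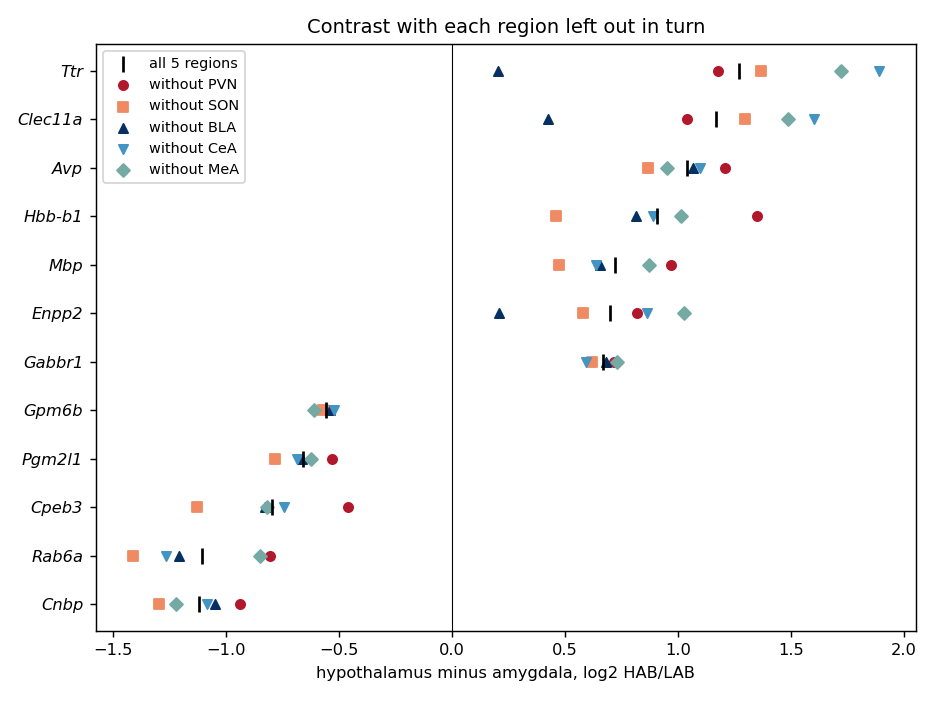
Contrast (hypothalamus minus amygdala, log2 HAB/LAB, x axis) of 12 genes with all 5 regions (black bars) and with each region left out in turn (colored symbols). Ttr, Clec11a and Enpp2 fall to 0.20, 0.42 and 0.21 without the BLA, Hbb-b1 falls to 0.46 without the SON, and the symbols of Gabbr1 and Gpm6b lie close together.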

How the data were processed

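Per region, 1 HAB and 1 LAB pool were compared on 10 arrays of the MPIP24k cDNA array. The authors deposited linear scanner intensity values, for the spots and for the local background of both channels, neither background subtracted nor normalized. The intensity columns of channel 2 are entered under the unit other for a formal reason. The authors also deposited a table of normalized log2 ratios, centred on 0, whose direction was found from the scanner values of the same arrays (r = 0.894 to 0.96 with HAB in Cy3 and 0.861 to 0.972 with HAB in Cy5, both as HAB over LAB). It served as an alternative. Local background was 0 in 77.7% of the spot values. By array this share ran from 98.8% to 99.9% in the PVN and from 54.6% to 99.6% in the SON. It ran from 60.6% to 84.8% in the BLA, from 28.1% to 99.3% in the CeA and from 79.7% to 94.8% in the MeA. Background correction could thus act differently between the regions. With raw intensities 94 probes were called, 62 of them among the 63.

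Intensities were corrected by normexp (offset 50), smoothed by loess over 40% of the spots and centred on the medians of the 48 print-tip blocks with limma 3.58.1 in R 4.3.3. The 1368 control or empty spots were removed, and the 22824 probes were tested with 1 mean and 1 dye term for each region (40 residual degrees of freedom) and Benjamini-Hochberg adjustment at 0.05. The tests of each side against 0 were added after the data had been seen. The number of arrays limits the precision of the contrast, and 1 pool per line and region limits what it says of the lines. In simulated data 82% of the contrasts of size 1 and 19% of those of size 0.5 were recovered, 100 each among 22824 probes, with 7 false calls. The simulated noise was that between arrays only, so these shares leave out the spread between pools and animals.

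Symbols were matched through NCBI RefSeq names (GRCm38.p6 table, names only): 7384 probes by identifier and 886 by official name, while 8580 kept a descriptive name, 5700 had none and 274 identifiers were not matched. Named genes are up to 12 of the largest called contrasts in each direction that were readable on both sides with regions apart and 1 sign in both orientations. This was met by 24 higher and 8 lower genes, so that all 8 lower ones were taken. Further named genes are the 4 largest other calls in each direction, in each list up to 3 genes by adjusted p-value, and the candidates of the study with Avp, Oxt, Crh and Glo1. Of these, the text gives part. Named probes are the brightest of a gene in lists, otherwise the called one. A readable probe exceeded the median of 1170 empty spots by 2 median absolute deviations on at least 50% of the arrays of a side in either line. The comparison, members and lists were chosen with earlier results of these data known. Alternatives were other background corrections, normalizations, filters, dye orientations and blocks, and fits without each region or array.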

Additional observations from a re-analysis of the deposited data

Results flagged for a closer look

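The contrast is itself a difference between the line effects of hypothalamus and amygdala, and it passed for the 28 genes named for it (limma, log2 HAB/LAB of hypothalamus minus that of amygdala). Higher in the hypothalamus were Ttr (1.27), Clec11a (1.17), Avp (1.04), Hbb-b1 (0.906), Hcst (0.823), Kdf1 (0.802), Plekhf1 (0.798), Arhgef10 (0.792), 3110035P10Rik (0.755), Eif4b (0.744), Mbp (0.722), Cdk2ap2 (0.713), Arf4 (0.677), Gabbr1 (0.669), Chmp1a (0.659) and Bhlhe41 (0.639). Lower were Cnbp (-1.12), Rab6a (-1.11), Snhg9 (-0.801), Cpeb3 (-0.794), tetratricopeptide repeat domain (-0.77), Fam126b (-0.703), Gpc1 (-0.7), Pgm2l1 (-0.657), the protein binding the SH3 domain of Ras-GTPase-activating protein (-0.622), heat shock protein 1 (-0.559), Gpm6b (-0.556) and transcriptional regulator protein (-0.545).

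Single arrays stood apart from the other 4 of their region and dye orientation in 16 of 280 groups of 5 arrays, a gap that chance gives in about 1 of 20 groups. In the SON, Hbb-b1 was at 0.958 on 1 array with HAB in Cy5 against 2.33 to 2.42 on the others, Eif4b at 2.61 (others -0.06 to 0.54), 3110035P10Rik at 0.237 (others 1.07 to 1.34) and Cnbp at 0.854 (others 1.61 to 1.88), and Arf4 was at 0.874 on 1 array with HAB in Cy3 (others -0.79 to -0.50). In the PVN, Rab6a was at 1.46 on 1 array with HAB in Cy5 (others 1.19 to 1.27). In the BLA, Ttr was at -3.91 on 1 array with HAB in Cy3 (others -3.46 to -3.31) and Snhg9 at 2.42 on 1 array with HAB in Cy5 (others 0.02 to 0.48). In the CeA, arrays with HAB in Cy3 stood apart for Mbp (0.487; others -0.90 to -0.58), Bhlhe41 (-1.05; others -0.12 to 0.15) and the protein binding the SH3 domain of Ras-GTPase-activating protein (-0.342; others 0.48 to 0.62). In the MeA, arrays with HAB in Cy3 stood apart for Mbp (-0.584), Pgm2l1 (0.573), Ttr (-0.545) and Cpeb3 (1.59), and 1 with HAB in Cy5 for Arhgef10 (0.485).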

How the results depend on the processing

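The count of 63 called probes depended on the processing. It was 98 with subtracted background, 36 with global loess without block medians, 277 of 4736 probes in the authors' log2 table, 107 of 17159 probes readable on a side, 310 with scan day as a random block (estimated correlation -0.03), 199 with HAB in Cy5 only, 35 with 1 common dye term, 102 in a fit of 70 arrays, 29 without the SON, 25 without the CeA and 117 without the MeA. Leaving out 1 array gave 46 to 77. Of the 63, all had the same sign in every alternative in which they were measured, except Alcam (0.14 with HAB in Cy5 only). The alternatives share arrays with the contrast by which the 63 were chosen, so nothing is read from the kept signs. Of the 63, only 15 were still called with HAB in Cy3 only and 24 with HAB in Cy5 only. The share of higher calls was 63.5%, but 25.8% of 62 with HAB in Cy3 only and 75.9% with HAB in Cy5 only, 53.8% with print-tip loess, 20.7% without the SON, 48% without the CeA, 73.8% without the PVN and 76.9% without the MeA. The cause was not tested.

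Over region values the count was 3 with subtracted background, 3 with global loess, 1 in the authors' table, 2 among readable probes, 1 with HAB in Cy3 only and 7 without the CeA. Called probes with regions apart numbered 75 with raw intensities, 75 with subtracted background, 29 with global loess, 172 in the authors' table and 83 among readable probes. Mmp15, not called, changed sign with global loess (-0.006835), with HAB in Cy5 only (-0.14), without the SON (-0.15) and without 1 SON array (-0.04104 to 0.127 over all arrays left out in turn), and Zfp672 with HAB in Cy5 only (0.32). Over 18 alternatives, contrasts of 54 called probes of genes and clones kept their direction and call in 676 cases, lost the call in 274 and reversed in 1. Cnbp and the clone 5730540D15 kept direction and call in all 18, with adjusted p-values up to 0.042 and 0.0111. Some genes given above as not called passed in alternatives. These were, among others, Rpl10a in 8 of 17, Rpl27a in 5 of 18, Atp5l in 7 of 18, Fasn in 8 of 18 and Slc25a17 in 1 of 18.

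Replicate numbers in the labels do not pair the arrays. Deviations of arrays with the same number correlated with r = 0.0021 on average (-0.0603 to 0.0748 over 225 pairs), and 13 of 50 arrays correlated best with their own number. With the replicate number as a block (replicate block), 55 probes were called, 53 of them among the 63. Dim spots and a median SE of 0.19 limit what these arrays can show.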
